A study of Penicillium oxalicum with 6 samples.

Results

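The genes described here are *amy13A* (*POX_c04732*), which encodes an α-amylase, and *POX_d05520*, which encodes a glucan branching enzyme, in the filamentous fungus *Penicillium oxalicum*. They were picked by their gene numbers, with earlier results of these data known, and are 2 of the 9822 genes quantified. Transcript levels were measured by RNA-seq of mycelium in 6 libraries, 3 of the parental strain Δ*ku70* and 3 of a strain in which *POX00418* was also deleted. Both groups thus lack *ku70*, a gene of non-homologous end joining whose loss makes targeted deletions easier to obtain. The labels name the deleted gene *POX00418*, whereas in the study the deleted regulator is *rsrC* (*POX_a01508*). They were taken as the same gene because *POX_a01508* was listed at 0 FPKM in the 3 deletion libraries, and the strain is called Δ*rsrC* below. The labels describe 24 h in glucose after inoculation with spores, then a transfer to an enzyme-production medium and another 24 h before RNA extraction. The treatment field names Avicel, a cellulose, as the carbon source of that medium, whereas the treatment protocol names raw starch and the study describes a commercial corn starch. The labels do not say whether the 3 libraries of a group came from separate cultures, so the p-values measure only the spread between these libraries.

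Starch and glycogen are both chains of glucose joined end to end, with branches at intervals. An α-amylase such as Amy13A is secreted and cuts bonds inside the starch chains, a glucoamylase releases glucose from the chain ends, and an α-glucosidase splits the short products that remain. A branching enzyme works in the opposite sense, inside the cell: it cuts a stretch of a growing glucan chain and joins it to a neighbouring chain as a branch, and it is known in fungi for its part in glycogen synthesis. The first gene therefore belongs to the breakdown of external starch and the second to the building of a storage glucan, although the study lists both among its amylolytic genes.

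The gene taken as the deleted one was looked at first, and its values are the ground for that match. The Δ*ku70* libraries held *rsrC* at 27.1, 30.3 and 39.0 FPKM, and all 3 Δ*rsrC* libraries list it at 0. FPKM counts the fragments of a gene per kilobase of its length and relative to all mapped fragments, so it divides out library depth, and 8451 to 8535 genes reached 1 FPKM in each library. FPKM summed to between 1274810 and 1317080 in the Δ*ku70* libraries and to between 1493560 and 1536320 in the Δ*rsrC* libraries, and the 2 ranges did not overlap. From the steps of the low values, the depth of the other libraries was estimated at 77.8% to 105% of that of the first Δ*ku70* library. Of the conidiation genes, *brlA*, a regulator of spore formation, lay between 0.81 and 1.71 FPKM in Δ*ku70* and between 0.42 and 1.59 in Δ*rsrC*. The 2 hydrophobin genes of that list lay at 66.7 to 146 FPKM in Δ*ku70* and at 13.4 to 49.5 in Δ*rsrC*, and the part of this difference in any result below was not tested.

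*amy13A* was a well expressed gene whose level varied widely in the parent. It measured 134, 360 and 517 FPKM in the 3 Δ*ku70* libraries and 569, 522 and 397 FPKM in the 3 Δ*rsrC* libraries. The first parental library was the lowest of the 6, the third parental library lay among the deletion libraries, and the groups overlapped. The Δ*ku70* mean was 337 ± 192 FPKM and the Δ*rsrC* mean 496 ± 89.1 FPKM (SD, n = 3 each), which is 47.2% higher. On the log2(FPKM + 1) scale the change was 0.74 with a standard error of 0.46, and its 95% interval ran from −0.36 to 1.84 (limma, adjusted p = 0.237 over all tested genes). In fold terms this interval ran from 0.782 to 3.58, so neither a small decrease nor a more than 3-fold increase lay outside it. Without the first parental library the log2 change was 0.18 (adjusted p = 0.562), and without the third it was 1.15 (adjusted p = 0.0633).

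The branching enzyme gene was lower and steadier. *POX_d05520* measured 240, 180 and 194 FPKM in Δ*ku70* and 240, 219 and 236 FPKM in Δ*rsrC*. The first parental library was level with the highest deletion library, and the other parental libraries were the lowest of the 6, so these groups overlapped too. The means were 205 ± 31.3 FPKM in Δ*ku70* and 232 ± 11.2 FPKM in Δ*rsrC* (SD, n = 3 each), 13.3% apart. The log2 change was 0.19 with a standard error of 0.13 and a 95% interval of −0.13 to 0.50 (limma, adjusted p = 0.292). In fold terms the interval ran from 0.916 to 1.42, much narrower than that of *amy13A*. When every library was rescaled to the same sum, the estimate was −0.04 (adjusted p = 0.828), while the median of all tested genes went from −0.13 to −0.34. Its sign thus depended on the scaling, but it lay above the median gene in both. Neither gene thus passed the test, whereas 39.3% of the 8605 tested genes did at an adjusted p under 0.05, and the groups did not overlap in 54.7% of them (higher in Δ*rsrC* in 19.4%, lower in 35.2%). In bulk mycelium a change in the share of cells that express a gene and a change in RNA per cell cannot be told apart.

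**Figure D1:**
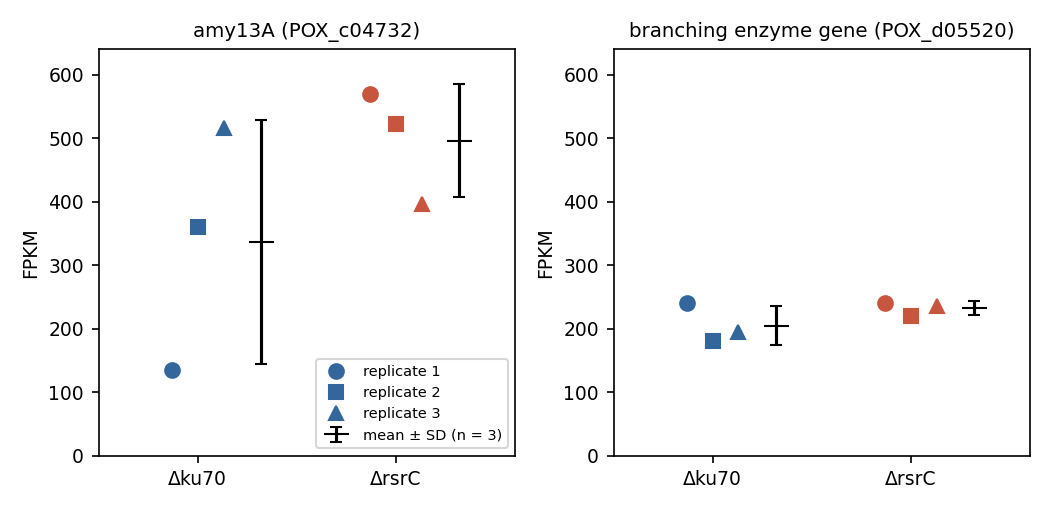
FPKM of *amy13A* (left) and of the branching enzyme gene (right) in each library, with the mean ± SD (n = 3) of Δ*ku70* (blue) and Δ*rsrC* (red) beside the points, and a symbol for each replicate number. *amy13A* runs from 134 to 517 FPKM in Δ*ku70*, while every value of the branching enzyme gene lies between 180 and 240 FPKM.

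The position of the 2 genes among all genes shows the same contrast. *amy13A* ranked 1587th, 608th and 422nd of 9822 genes in the 3 Δ*ku70* libraries, and 426th, 461st and 578th in the Δ*rsrC* libraries. Relative to the median gene of its own library, it stood at 4.28, 11.2 and 16.4 times in Δ*ku70* and at 21.0, 18.9 and 14.9 times in Δ*rsrC*. The first parental library was again the one apart from the other 5. The branching enzyme gene ranked 871st, 1191st and 1121st in Δ*ku70* and 943rd, 1034th and 932nd in Δ*rsrC*.

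To see whether such spread is usual at this level, the SD of log2(FPKM + 1) over the 3 parental libraries was set against that of the 200 genes nearest in mean parental FPKM. For *amy13A* the SD was 1.00, whereas its 200 comparison genes, at 285 to 398 FPKM, had a median SD of 0.17 and quartiles of 0.11 and 0.25. Its spread was 5.98 times that median and stood at percentile 98.5, with 3 of the 200 genes above it. In the Δ*rsrC* libraries the SD of *amy13A* was 0.27 against a median of 0.16 for the same genes, at percentile 85.0. Whether the spread differed between the strains was not tested. The parental value rested largely on the first library, since without it *amy13A* stood at percentile 77.0.

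The branching enzyme gene lay near the middle of its comparison genes in the parent. Its parental SD was 0.21, beside a median of 0.17 for 200 genes at 187 to 224 FPKM, which put it at percentile 65.0. In Δ*rsrC* its SD was 0.07 against a median of 0.16, and 171 of the 200 genes varied more, which put it at percentile 14.5. With 3 libraries an SD is itself imprecise, and the parental percentile ran from 21.5 without the first parental library to 84.5 without the third.

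**Figure D2:**
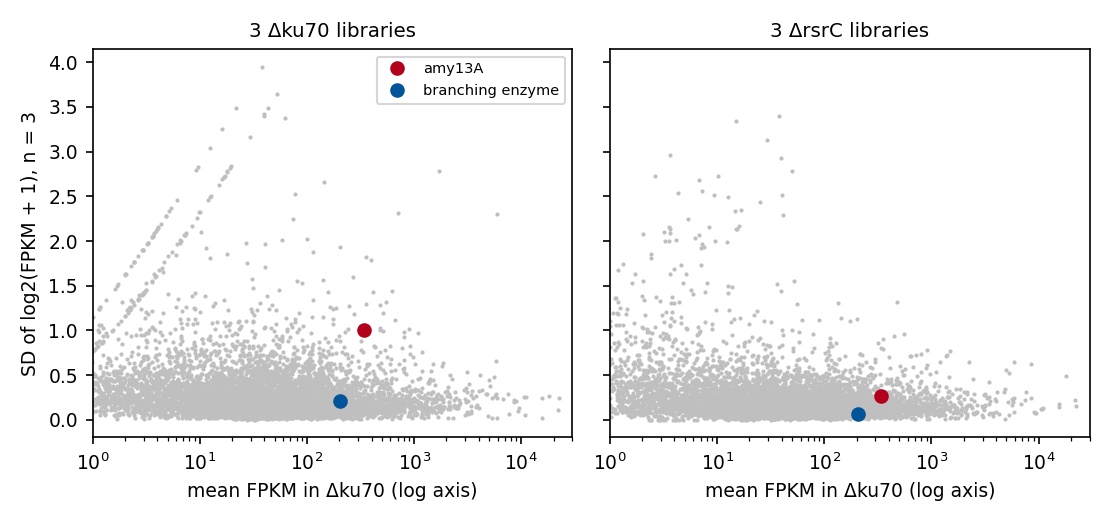
SD of log2(FPKM + 1) over the 3 Δ*ku70* libraries (left) and the 3 Δ*rsrC* libraries (right) against mean FPKM in Δ*ku70* on a log axis that starts at 1 FPKM, each grey point being 1 tested gene. *amy13A* (red) lies at an SD of 1.00 on the left, above nearly all genes of its level, and at 0.27 on the right, while the branching enzyme gene (blue) lies at 0.21 and 0.07, among the others.

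The 3 genes with a larger parental spread than *amy13A* among its 200 comparison genes are named here after their values were seen. *POX_h09765* measured 134, 360 and 514 FPKM in Δ*ku70*, nearly the values of *amy13A*, but 74.0, 215 and 173 FPKM in Δ*rsrC*, well below it. *POX_e07208* ran from 62.7 FPKM in the first to 791 FPKM in the third parental library. *POX_c04655* was lowest in the third, at 108 FPKM, and highest in the second, at 652 FPKM. Genes that vary this much in the parent therefore did not all vary in the same order.

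Over all genes, a parental range as wide as that of *amy13A*, whose highest value was 3.84 times its lowest, was uncommon. It was reached by 193 of the 8605 tested genes (2.24%) with a lowest value above 0. The number was 388 (4.51%) with genes whose lowest value was 0 counted too. Among the 2179 genes with a parental mean of at least 100 FPKM, 36 (1.65%) had a ratio at least as large. The order itself, lowest in the first and highest in the third parental library, held for 1958 of the 8605 tested genes (22.8%), and 64 (0.744%) combined it with a ratio of the third to the first library at least as large as that of *amy13A*. Of the 8 amylolytic genes, 4 had this order: *amy13A*, the glucoamylase genes *PoxGA15A* and *POX_b02418*, and the α-glucosidase gene *POX_f08248*. The third library stood at 1.91 times the first for *PoxGA15A* and at 2.36 times for *POX_b02418*. For the branching enzyme gene it stood at 0.808 times, so this gene did not share the order.

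The amylolytic list holds 8 genes that the study names in its comparisons of several deletion strains, gathered here. The study chose them partly on these libraries, so the counts of the list are not independent evidence of a direction. Of the 8, 1 rose and 3 fell in Δ*rsrC*, beside 13.8% and 25.6% of all tested genes, and 4 did not pass the test, *amy13A* and the branching enzyme gene among them. The study used a p value under 0.05 for this strain and names no adjustment. By that criterion it reports the branching enzyme gene as raised and also counts *POX_f08248* and *POX_c03853* as changed. It does not name *amy13A* among the changed amylolytic genes of this strain. The median log2 change of the list was 0.17, beside −0.13 for all tested genes.

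Both glucoamylase genes, whose enzymes take glucose from the chain ends, fell. *PoxGA15A* measured 773, 1151 and 1473 FPKM in Δ*ku70* and 495, 561 and 503 FPKM in Δ*rsrC*, with every deletion library below every parental one. Its log2 change was −1.08 (SE 0.23, limma, adjusted p = 0.0122). *POX_b02418* measured 369, 535 and 872 FPKM in Δ*ku70* and 187, 208 and 193 FPKM in Δ*rsrC*, again without overlap, and its log2 change was −1.50 (SE 0.29, limma, adjusted p = 0.00872). Of the α-glucosidase genes, *POX_g08885* rose by 1.24 on the log2 scale (limma, adjusted p = 0.00140) and *POX_e06687* fell by 1.16 (limma, adjusted p = 0.00804). *POX_f08248*, at 0.21 (adjusted p = 0.281), and *POX_c03853*, at 0.16 (adjusted p = 0.307), did not pass.

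Within a library the ratio of 2 genes does not depend on how the library was scaled, so *amy13A* was also set against single genes. The ratio of *amy13A* to *PoxGA15A* was 0.174, 0.313 and 0.351 in the Δ*ku70* libraries and 1.15, 0.931 and 0.789 in the Δ*rsrC* libraries. Every deletion library had the higher ratio, and the geometric mean went from 0.267 to 0.945, 3.54-fold higher. The exact permutation test gave p = 0.1 (two-sided), the smallest p that 3 against 3 libraries allow, and 0.15 after adjustment over the 3 ratios computed. The ratio to the other glucoamylase gene, *POX_b02418*, added after the values were seen, was 0.365, 0.673 and 0.593 in Δ*ku70* and 3.04, 2.51 and 2.05 in Δ*rsrC*. It was 4.76-fold higher, with the same exact p = 0.1, which is 0.15 after adjustment. The first parental library was the lowest in both ratios, but it was nearer to the other parental libraries than the highest parental ratio was to the lowest deletion ratio. Both glucoamylase genes themselves fell, with log2 changes of −1.08 and −1.50, so a gene without any change would also have a higher ratio to them. The higher ratios and the share below are therefore not evidence of a rise of *amy13A*.

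The ratio of *amy13A* to the branching enzyme gene did not separate the groups. It was 0.560, 2.00 and 2.66 in Δ*ku70* and 2.37, 2.38 and 1.68 in Δ*rsrC*, with the third parental library the highest of all and the first the lowest. The geometric mean was 1.44 in Δ*ku70* and 2.11 in Δ*rsrC*, the groups overlapped, and the exact permutation test gave p = 0.7 (two-sided). Without the first parental library the log2 difference changed sign, from 0.55 to −0.12.

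**Figure D3:**
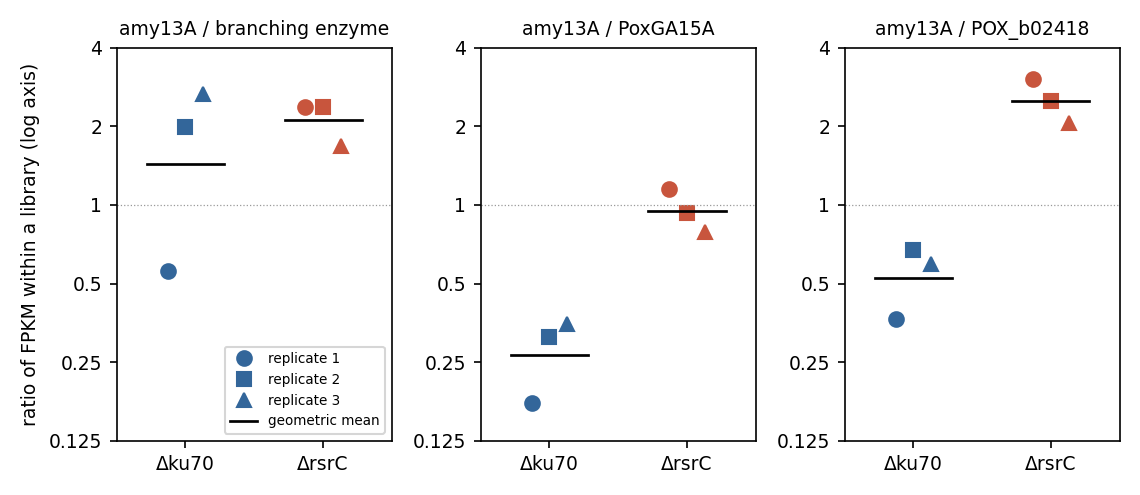
Ratio of the FPKM of *amy13A* to that of the branching enzyme gene (left), of *PoxGA15A* (middle) and of *POX_b02418* (right) in each library, on a log axis, with the geometric mean of Δ*ku70* (blue) and Δ*rsrC* (red) as a line. The groups overlap on the left and are apart for both glucoamylase genes, where the mean goes from 0.267 to 0.945 and from 0.526 to 2.50.

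The same values can be written as a share, which restates the ratios to the 2 glucoamylase genes and leaves out the other amylolytic genes. *amy13A* made up 10.5%, 17.6% and 18.1% of the summed FPKM of itself and the 2 glucoamylase genes in Δ*ku70*, and 45.5%, 40.4% and 36.3% in Δ*rsrC*. The mean share was 15.4% ± 4.21 in Δ*ku70* and 40.7% ± 4.60 in Δ*rsrC* (SD, n = 3 each), without overlap (exact permutation test, two-sided, p = 0.1). The sum of the 3 genes was 1276, 2046 and 2861 FPKM in Δ*ku70* and 1251, 1291 and 1093 FPKM in Δ*rsrC*, and there the first parental library lay inside the range of the deletion libraries (exact permutation test, two-sided, p = 0.2). This share was also added after the values were seen.

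Among the 8 amylolytic genes ordered by FPKM, which is a level per gene length, *POX_f08248* was the highest in all 6 libraries. *amy13A* was 6th, 4th and 4th in Δ*ku70*, and 2nd, 3rd and 3rd in Δ*rsrC*. In Δ*ku70* the branching enzyme gene stood above it in the first library and directly below it in the others, and all values of that gene lay inside the range of *amy13A*. In Δ*rsrC* the neighbour in the order was *PoxGA15A*, above it in 2 libraries and below it in 1, and their ranges overlapped as well. The branching enzyme gene itself held 4th or 5th place throughout.

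The branching enzyme was next compared with other genes of glycogen and α-glucan metabolism. The list of 8 holds the genes on chromosomes a to c whose family names in the study's supplementary lists belong to such enzymes, so it is not complete. Those lists hold genes that the study called differentially expressed, partly on these libraries. The counts here are therefore not independent evidence of a change or its direction. Of the 8, 1 rose and 4 fell in Δ*rsrC*, beside 13.8% and 25.6% of all tested genes. The median log2 change was −0.16, close to the −0.13 of all tested genes. *POX_a00097*, of glycosyltransferase family GT3, which holds the fungal glycogen synthases, fell from a mean of 168 to 116 FPKM (log2 change −0.52, SE 0.12, limma, adjusted p = 0.0164). *POX_b03390*, of family GH133, which holds glycogen debranching enzymes, fell from 93.9 to 69.3 FPKM, with an adjusted p of 0.0497 (limma) at the edge of the threshold. The call of *POX_a00097* was lost without the first Δ*ku70*, the first Δ*rsrC* or the second Δ*rsrC* library (limma, adjusted p from 0.0555 to 0.0604), and that of *POX_b03390* without any 1 library other than the third Δ*ku70* one (limma, adjusted p from 0.0600 to 0.143). *POX_c03592*, of family GT35, that of the glycogen phosphorylases, was the most abundant of the list at 1031 and 1315 FPKM and did not pass (log2 change 0.36, limma, adjusted p = 0.107). With median-ratio scaling it passed narrowly, at a log2 change of 0.50 (limma, adjusted p = 0.0496).

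The other genes of the list moved in both directions. *POX_b02810*, of family GT5, rose from 57.1 to 132 FPKM, 1.19 higher on the log2 scale (SE 0.11, limma, adjusted p = 9.24e-04). *POX_b03243*, which joins a GT5 domain to a GH13 domain as fungal α-glucan synthases do, fell from 73.9 to 44.5 FPKM (limma, adjusted p = 0.00924). *POX_a01579*, with a starch- and glycogen-binding module of family CBM21, fell from 322 to 191 FPKM (limma, adjusted p = 0.00360). *POX_b03245*, of the α-amylase subfamily GH13_5, had a log2 change of 0.11 (adjusted p = 0.489), and *POX_b03468*, an α-glucosidase gene, one of 0.32 (adjusted p = 0.350); neither passed.

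**Figure D4:**
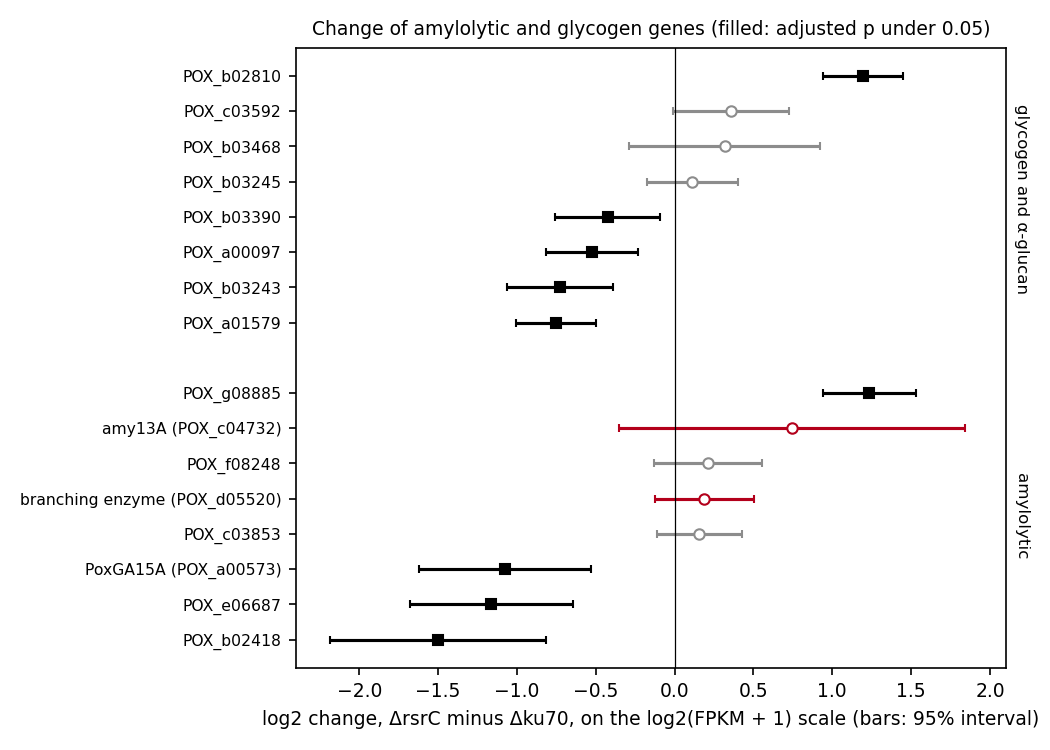
Log2 change (Δ*rsrC* minus Δ*ku70*, log2(FPKM + 1) scale) with its 95% interval for the genes of the amylolytic list (bottom) and of the glycogen and α-glucan list (top), filled where the adjusted p is under 0.05, with *amy13A* and the branching enzyme gene in red. The interval of *amy13A*, from −0.36 to 1.84, is the widest shown, and both red intervals include 0.

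Of the regulators that the study names for amylase genes, *amyR*, the activator of starch-degrading genes in fungi, had a mean of 57.4 FPKM in Δ*ku70* and 45.8 FPKM in Δ*rsrC* and did not pass (log2 change −0.32, limma, adjusted p = 0.0587). *creA*, the carbon catabolite repressor, fell by 0.61 on the log2 scale (limma, adjusted p = 0.0126), and *rsrA*, another activator, fell by 0.49 (limma, adjusted p = 0.0329), a call lost without the second or the third library of either strain (limma, adjusted p from 0.0658 to 0.103), with the replicate block and under median-ratio or quantile scaling (limma, adjusted p from 0.0761 to 0.189). *rsrB* at 0.21 (adjusted p = 0.278) and *cxrC* at −0.29 (adjusted p = 0.0816) did not pass. After rescaling to equal sums, which lowered the median of all genes, *amyR* and *cxrC* passed at −0.54 and −0.50 (limma, adjusted p = 0.00741 and 0.0106). Their levels are given beside those of *amy13A* as measurements, and a link between them was not tested.

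In the numbering of the genome, the 10 genes on each side of *amy13A* were examined, of which 18 of 20 could be tested. Of these, 2 rose and 4 fell, beside the 39.3% of all tested genes that passed, and their median log2 change was −0.05. The gene with the next lower number, *POX_c04731*, measured 6.60, 39.5 and 47.5 FPKM in Δ*ku70* and 3.60, 4.51 and 5.07 FPKM in Δ*rsrC*. It thus had the parental order of *amy13A*, with the third library at 7.20 times the first. It fell in Δ*rsrC* (log2 change −2.20, limma, adjusted p = 0.0370), whereas *amy13A* did not pass the test in either direction. Whether the changes of these genes differ was not tested. *POX_c04726* varied most in the parent, at 7621, 9561 and 542 FPKM, with the third library the low one, and measured 338, 138 and 206 FPKM in Δ*rsrC* (log2 change −4.00, limma, adjusted p = 0.0239). *POX_c04726* kept its call only without the third Δ*ku70* library and *POX_c04731* only without the first, and each of the other 5 omissions ended it (limma, adjusted p from 0.0556 to 0.0758 and from 0.0728 to 0.108). *POX_c04725* and *POX_c04730* also fell, by 1.33 and 1.15 on the log2 scale (limma, adjusted p = 0.00793 and 0.00233). On the other side, *POX_c04734* rose by 2.23 and *POX_c04739* by 2.32 (limma, adjusted p = 0.0145 and 0.00312), the former no longer past the threshold without the first Δ*rsrC* library (limma, adjusted p = 0.0556). Without that library 3 of the genes beside *amy13A* were called.

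Of the 19 gene numbers beside the branching enzyme gene that the files hold, 17 could be tested, 2 rose and 1 fell, beside 13.8% and 25.6% of all tested genes, and the median log2 change was 0.15. The count of 3 depended on the scaling, with 6 called after median-ratio scaling and 7 after rescaling to equal sums. *POX_d05515* and *POX_d05526* rose by 0.72 and 0.69 on the log2 scale (limma, adjusted p = 0.0131 and 0.00685), and *POX_d05513* fell by 0.62 (limma, adjusted p = 0.0163). The largest parental SDs there were 0.81 for *POX_d05527* and 0.61 for *POX_d05529*, below the 2.30 of *POX_c04726* and the 1.47 of *POX_c04731* beside *amy13A*.

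**Figure D5:**
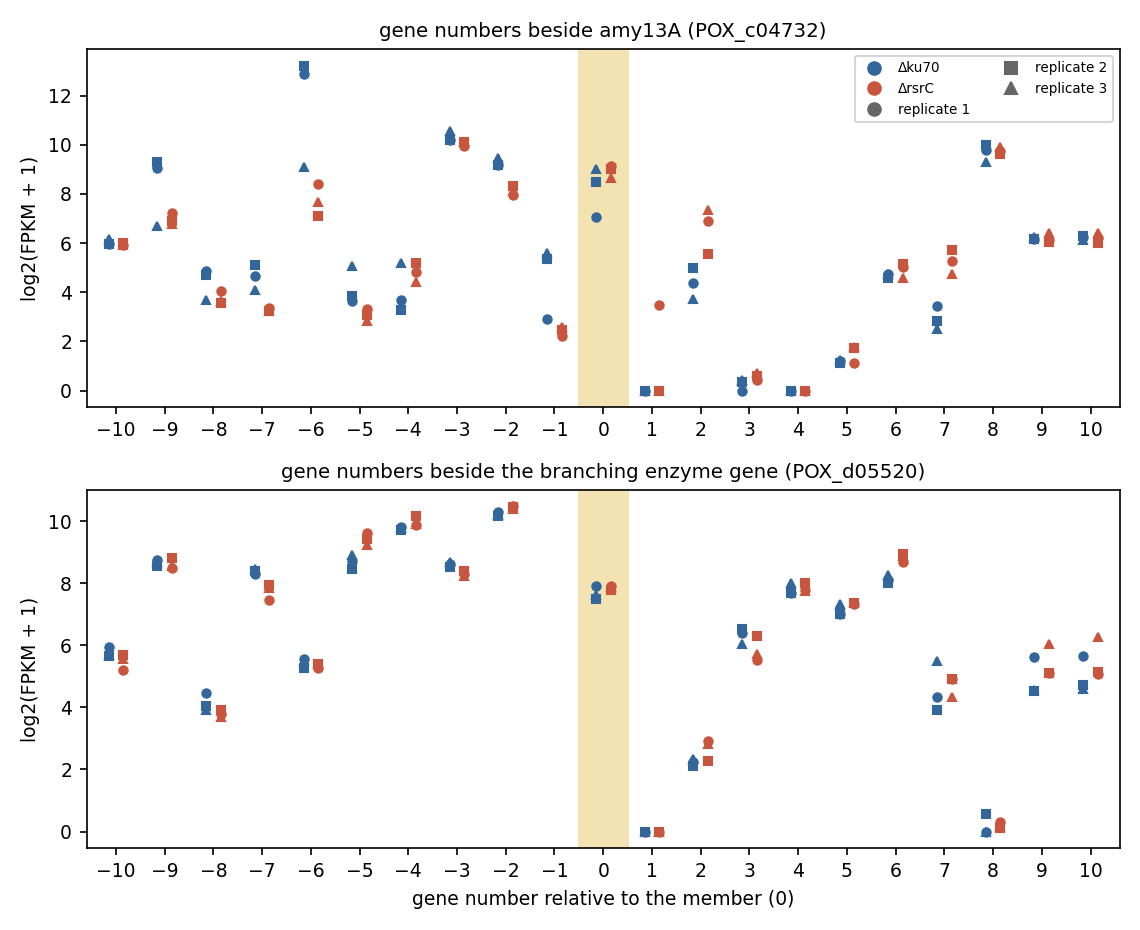
Log2(FPKM + 1) in each library of the genes numbered up to 10 below and above *amy13A* (top) and the branching enzyme gene (bottom), with Δ*ku70* in blue, Δ*rsrC* in red and a symbol for each replicate number. The member is shaded. Beside *amy13A* the parental points are far apart for several genes, such as *POX_c04731* at −1 and *POX_c04726* at −6, whereas beside the branching enzyme gene they lie closer together.

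Genes with a pattern most like that of each member were found by Pearson's r of log2(FPKM + 1) over the 6 libraries among the 7099 genes whose mean reached 10 FPKM. These values describe the libraries, which all genes share, and carry no test, since the highest of 7099 coefficients over 6 points are high by selection. For *amy13A* they were *POX_b02859* (r = 0.985), *POX_b02061* (0.982), *POX_h09420* (0.978), *POX_c04272* (0.975) and *POX_d04798* (0.973). All 5 had their lowest value in the first parental library and none passed the test between the groups. Their own ranges were narrower: *POX_b02061*, the most abundant, measured 2769, 3421 and 4063 FPKM in Δ*ku70* and 4015, 3831 and 3682 FPKM in Δ*rsrC*. Without the first parental library the coefficients lay between 0.868 and 0.963. After rescaling to equal sums they lay between 0.828 (*POX_b02061*) and 0.969 (*POX_c04272*), so their order depended on the scaling. For the branching enzyme gene they were *POX_a00680* (r = 0.984), *POX_c04165* (0.973), *POX_c03781* (0.970), *POX_d05657* (0.970) and *POX_a01060* (0.956). These had their lowest parental value in the second library, as the branching enzyme gene did, and none passed the test either. Rescaled to equal sums, their coefficients lay between 0.845 (*POX_a01060*) and 0.943 (*POX_c03781*).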

How the data were processed

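Polyadenylated RNA of 6 mycelium libraries was sequenced. The study gives BGISEQ sequencing, alignment with BWA and Bowtie2, RSEM for quantification and NOISeq for comparison, while the submitters' processing notes name bcl2fastq and HISAT2, and no genome build is given in the sources used here. The authors deposited 1 table of FPKM per library, rounded to 2 decimals, with no replicates pooled. Because FPKM is relative to all mapped fragments, abundant genes lower the values of the others. No counts were used, so depth is known only relative to other libraries and no counting intervals are given.

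Groups were taken from the sample labels. Genes whose mean reached 1 FPKM (8605 of 9822) were fitted on log2(FPKM + 1) with limma 3.58.1 in R 4.3.3 (intensity trend, two-sided, Benjamini-Hochberg over all tested genes, threshold 0.05). The pseudocount of 1 understates changes of low genes. Ratios were tested by exact permutation, for which 0.1 is the smallest p. The script was tested on simulated data. Gene numbers gave the order along chromosomes, and 9718 of the numbers matched the RefSeq gene table of assembly ASM172317v3, from which no coordinates are used.

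Named were the members, the deleted gene, the amylolytic, glycogen and regulator lists, conidiation markers, neighbours that passed the test or had the 2 largest parental SDs, and the 5 genes most like each member. Members and lists were chosen with earlier results of these data known. Shared replicate numbers were not treated as pairs. Alternatives were 2 other pseudocounts, 2 other filters, 3 other scalings, a replicate block, 2 other variance models, leaving out each library, and, for the spread, the number of comparison genes, the measure and the level used. NOISeq and a search for homologues of the members by protein sequence were not run.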

Additional observations from a re-analysis of the deposited data

How the results depend on the processing

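The log2 change of *amy13A* kept its sign and stayed short of the threshold in all 16 alternatives, between 0.18 and 1.15 (limma, adjusted p from 0.0633 to 0.562), as did the count of 4 called amylolytic genes. That of the branching enzyme gene stayed short of it too, between −0.039 and 0.33 (limma, adjusted p from 0.104 to 0.828), with the sign turned only by rescaling to equal sums. That rescaling moved the median change of all genes from −0.13 to −0.34 and also gave −0.071 for *POX_c03853*, −0.018 for *POX_f08248*, −0.12 for *POX_b03245* and −0.016 for *rsrB*, none of which passed. Quantile normalization gave −0.060 for *POX_f08248*. The median-ratio scaling put the median of all genes at 0.00. Called genes beside the branching enzyme gene numbered 7 with equal sums and 6 with median-ratio scaling, against 3, and the cause was not tested.

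With the replicate number as a block, 2213 genes in place of 3386 were called and 3 of the glycogen list in place of 5, while *amy13A* (adjusted p = 0.272) and the branching enzyme gene (0.345) did not pass. Deviations of same-numbered libraries correlated at 0.00, −0.13 and −0.24, so the numbers were not treated as pairs.

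Leaving out 1 library at a time gave 2126 to 3476 called genes (fewest without the first Δ*rsrC* library), 3 to 5 of the glycogen list (3 without the first Δ*ku70*, the first Δ*rsrC* or the second Δ*rsrC* library) and 3 to 9 beside *amy13A* (3 without the first Δ*rsrC* library). The parental spread stood at percentiles 77.0 to 99.5 for *amy13A* and 21.5 to 84.5 for the branching enzyme gene. The log2 difference of the ratio of *amy13A* to the branching enzyme gene ran from −0.12 to 1.00, to *PoxGA15A* from 1.51 to 2.01 and to *POX_b02418* from 1.98 to 2.42. *POX_b03390* lost its call in 11 of the 16 alternatives, *rsrA* in 7 and *POX_a00097* in 5, while *amyR* passed when genes had to reach a mean of 10 FPKM (limma, adjusted p = 0.0494). *POX_c03592* passed with median-ratio scaling alone (limma, adjusted p = 0.0496). Depth is known only as a relative value, and 3 libraries a group limit every SD given. The search for homologues of the members was not run.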
